A study of Petunia x hybrida with 9 samples.

Results

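The loci described here are the flavonoid and anthocyanin enzymes of the petunia corolla, the showy ring of petals. They were chosen by name: a locus belonged if the description of its best tomato protein match named a chalcone, flavanone, flavonol, flavonoid, flavone synthase, dihydroflavonol, leucoanthocyanidin or anthocyanidin enzyme and no acyltransferase. This took 98 of the 94534 loci in the deposited table, from 46 assembled genes and 29 tomato proteins. By the step named in the description, 6 were chalcone synthases, 9 chalcone isomerases, 9 flavanone 3-hydroxylases, 19 dihydroflavonol reductases, 14 anthocyanidin synthases, 2 anthocyanidin reductases and 39 flavonoid or anthocyanidin glycosyltransferases. No locus taken by the rule was described as a flavonol synthase or a flavone synthase. This does not show that these enzymes were absent, also among the 98 loci under another description. Protein identity to tomato lay between 30.16% and 94.86%, with a median of 67.305%, so a description belongs to the nearest tomato relative and the petunia locus is known only by its number.

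Flavonoids are made from phenylalanine. Chalcone synthase joins coumaroyl-CoA with malonyl-CoA, chalcone isomerase closes the ring, and flavanone 3-hydroxylase gives dihydroflavonols, which lead either to colourless flavonols or, through dihydroflavonol reductase, anthocyanidin synthase and a glucosyltransferase, to coloured anthocyanins. In petunia petals the late steps are under the control of a complex of MYB, basic helix-loop-helix and WD40 proteins, and white corollas can still make flavonols.

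Corollas of Petunia hybrida cultivar Mitchell were sampled in 3 genotypes with 3 libraries each, at hour 20 on day 2 after the flowers opened and with at least 8 corollas in a sample. The groups were A4 and A9, which the labels describe as overexpressors of the arogenate dehydratase PhADT, an enzyme that makes phenylalanine, and wild type (WT). The series title speaks of a site-directed mutant, and a mutation label, R353A, stands on all 9 samples including wild type, so it did not serve to group them. The promoter of the transgene is not given in the sources used here, and the labels do not tell if each replicate was a separate plant. The p-values therefore cover the variation among these libraries only, part of which may be technical.

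As a check of the labels, a dehydratase locus, XLOC_018765, averaged 0.029 ± 0.029 FPKM in the libraries labelled A4, 95.3 ± 13.8 in A9 and 0.013 ± 0.0225 in WT (SD, n = 3 each). Of 15 measured dehydratase loci none rose and 7 fell in the libraries labelled A4 against WT. The share that fell was 46.7%, against 16.6% of all loci tested. The data thus did not bear out the overexpressor label of A4 at the level of these loci, and its libraries are called the libraries labelled A4. Depth, recovered from the steps between low values, was between 29300000 and 41500000 fragments per library, so that 1 FPKM over a locus of 1500 bases stood for between 36.3 and 51.9 fragments. Libraries correlated at 0.971 to 0.985 within groups and at 0.88 to 0.942 between groups. None of the words set as corolla markers matched a locus; 154 loci described as MADS-box proteins, the family that holds the petal identity factors, summed to between 1956 and 2092 FPKM in the libraries labelled A4, 1993 and 2544 in A9 and 2184 and 2376 in WT. Green tissue markers (74 loci, of which 52 were measured) summed to between 566 and 930 FPKM in the libraries labelled A4, 501 and 798 in A9 and 991 and 1267 in WT, with 21 loci lower in each comparison and 3 higher in the first. Anther and pollen markers (78 loci, 51 measured) summed to between 359 and 440, 461 and 475, and 442 and 547 FPKM in the same order of groups, with 6 loci higher and 20 lower in the libraries labelled A4 and 16 higher and 12 lower in A9. In the libraries labelled A4 the shares called were 46.2% for green tissue and 51% for anther and pollen, against 32.1% of all loci tested. In A9 they were 40.4% and 54.9%, against 19.2%. No green tissue locus was at 0 in every library of a group, whereas 1 anther or pollen locus was at 0 in all libraries labelled A4 and 2 were in all WT libraries. The part of these markers in the results below was not tested, and fewer cells of a type cannot be told apart from less RNA per cell in whole corollas.

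Of the 98 loci, 50 had a mean of at least 1 FPKM (fragments per kilobase, scaled to library size) over the 9 libraries and entered the tests. These came from 24 assembled genes, and loci of one assembled gene draw on the same reads, which makes the level of each uncertain and the loci dependent on one another. The other 48 had means between 0.0842 and 0.983 FPKM and no library above 1.91. Among the measured loci 5 (XLOC_010254, XLOC_028443, XLOC_030968, XLOC_037804 and XLOC_065945) reached 1 FPKM only through the group where they were highest, which had to favour a difference; all 5 are among the calls in the libraries labelled A4, and 3 of them in A9. In the test without a filter, which takes in all 98 loci, the adjusted p of these 5 for the libraries labelled A4 against WT lay between 4.31e-07 and 0.000372. The measured loci were not abundant: their median WT level was 2.27 FPKM, against 3.3 over all 53284 loci tested. Among the highest loci of the steps, XLOC_092595, described as an anthocyanidin synthase, had the highest WT level. Its WT mean of 89.3 FPKM lay above 97.8% of tested loci. The lowest was XLOC_048098, described as an anthocyanidin reductase, at 2.24 FPKM, above 36.5%. Of the enzymes upstream of the pathway 51 loci were measured, with a median WT level of 152.8 FPKM and a range from 0.9175 to 3470.

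**Figure D1:**
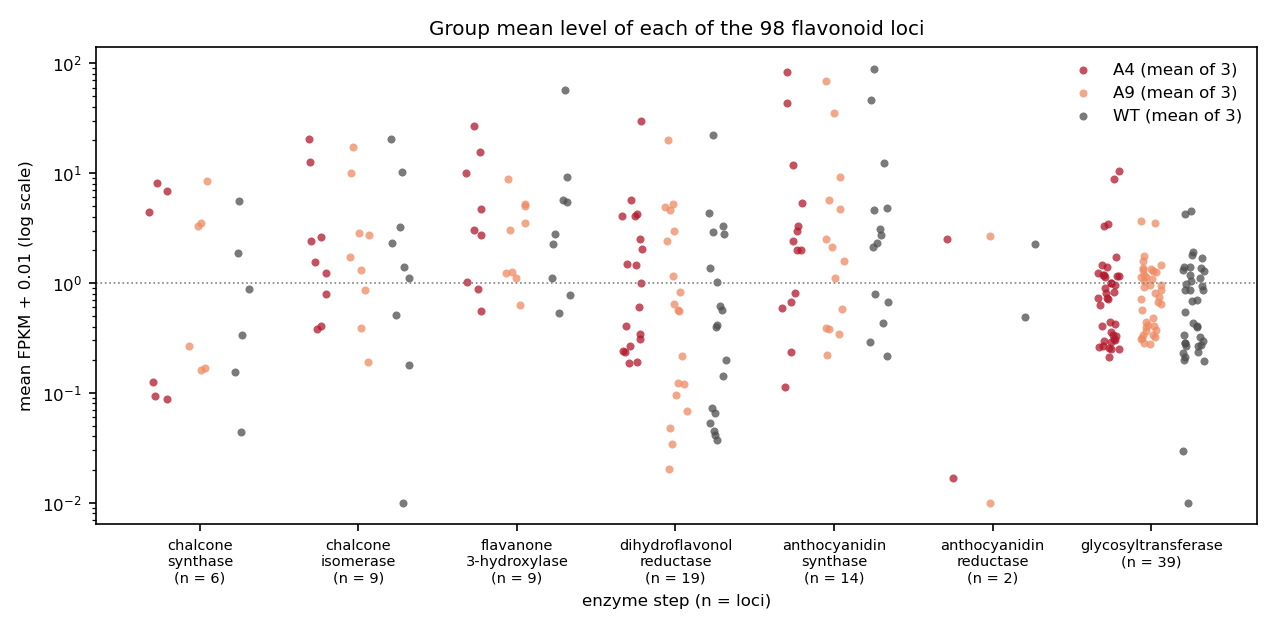
Mean FPKM plus 0.01 (log axis) of each of the 98 flavonoid loci in the libraries labelled A4, in A9 and in WT, by enzyme step; each point is a locus mean over 3 libraries and the dotted line marks 1 FPKM. The loci described as anthocyanidin synthase hold the highest point in each group, and most of the 39 glycosyltransferase loci lie at or under a few FPKM.

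Against WT, 19 of the 50 measured loci were called in the libraries labelled A4 at an adjusted p under 0.05, which is 38% against 32.1% of all loci tested. Of these 14 rose (15.6% of all loci did) and 5 fell (16.6% of all loci did). In A9, 12 of 50 were called, which is 24% against 19.2% of all loci, with 9 higher (8.98% of all loci) and 3 lower (10.3% of all loci). Without the block the overall shares were near the background, the shares of rises were 28% and 18% of the measured loci, and the shares of falls were 10% and 6%. Counted once per assembled gene, 9 of 24 genes held a rise and 4 a fall in the libraries labelled A4, and 6 held a rise and 2 a fall in A9. The same count over all assembled genes was not made, so these gene counts have no background share. The median log2(FPKM + 1) difference of the measured loci was 0.03 in the libraries labelled A4 and -0.02 in A9, against -0.04 and -0.01 over all loci. Both comparisons use the same 3 WT libraries. The calls include the loci above that reached 1 FPKM only through their highest group, 5 in the libraries labelled A4 and 3 in A9. No share was computed without them. With the replicate number as a block, 18 loci were called in A9, 12 higher and 6 lower, which is 36% against 22.1% of all loci under the same fit.

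**Figure D2:**
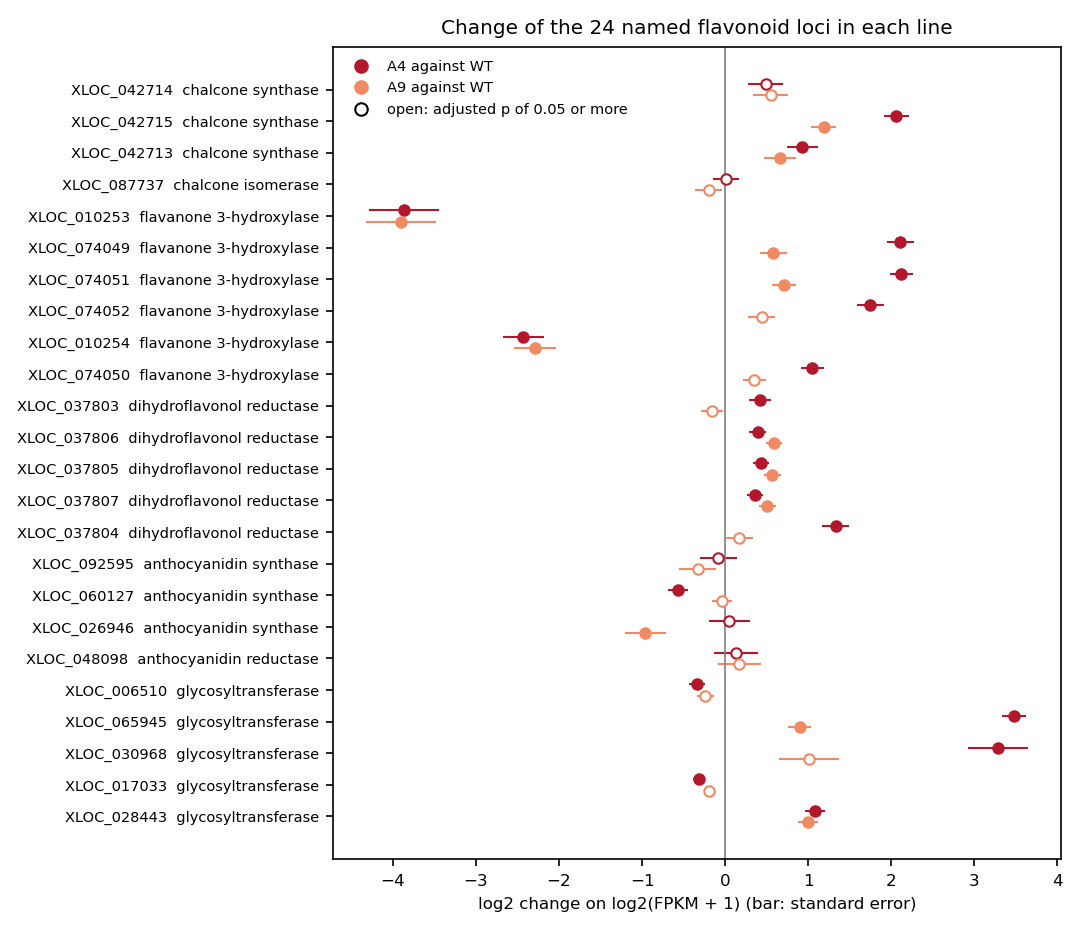
Difference from WT on the log2(FPKM + 1) scale of the 24 named flavonoid loci in the libraries labelled A4 and in A9, with the standard error as a bar; open circles have an adjusted p of 0.05 or more. The flavanone 3-hydroxylase-like loci XLOC_010253 and XLOC_010254 lie far to the left in both lines, and the glycosyltransferase locus XLOC_065945 lies farthest to the right at 3.48 in the libraries labelled A4.

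Chalcone synthase is the entry enzyme of the pathway. Of its 3 measured loci, 2 rose in the libraries labelled A4 and 2 rose in A9. That is 66.7% in each, against 15.6% and 8.98% of all loci, but on 3 loci from 2 assembled genes. XLOC_042715, a locus of 724 bases with 94.06% identity to a tomato chalcone synthase, had 7.32, 5.71 and 7.36 FPKM in the libraries labelled A4, 2.42, 3.88 and 3.56 in A9, and 1.01, 0.688 and 0.89 in WT. The 3 groups did not overlap, and the order was A4 above A9 above WT. Its log2(FPKM + 1) difference from WT was 2.06 (SE 0.15, adjusted p = 2.02e-05) in the libraries labelled A4 and 1.19 (SE 0.15, adjusted p = 0.000833) in A9, and the mean FPKM were 7.87-fold and 3.81-fold those of WT.

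A second assembled gene carried the other 2 measured chalcone synthase loci, both closest to another tomato chalcone synthase. XLOC_042713 had 4.27, 3.6 and 5.35 FPKM in the libraries labelled A4, 3.51, 2.78 and 4.13 in A9, and 2.25, 1.16 and 2.18 in WT, with every library of both lines above every WT library. It rose by 0.93 (SE 0.19, adjusted p = 0.00612) in the libraries labelled A4 and by 0.66 (SE 0.19, adjusted p = 0.0414) in A9 on the log2(FPKM + 1) scale. The A9 call was lost without any of A4 replicate 1, A9 replicates 1 and 3 and WT replicates 1, 2 and 3, with adjusted p between 0.0529 and 0.129, and in a fit of A9 and WT alone (0.0575). XLOC_042714, the highest chalcone synthase locus and the one with the closest match of all 98 (94.86% identity), had 8.29, 6.55 and 9.70 FPKM in the libraries labelled A4, 8.75, 6.94 and 9.97 in A9, and 6.72, 3.77 and 6.34 in WT. Only the A4 values overlapped those of WT, and neither difference passed (0.49, SE 0.21, adjusted p = 0.107 and 0.55, SE 0.21, adjusted p = 0.102). With the replicate number as a block the adjusted p was 0.00839 for A9 and 0.00833 for the libraries labelled A4. The check of replicate numbers below does not settle whether libraries were paired, so the block stands as an alternative only.

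Chalcone isomerase did not pass the test at any of its 6 measured loci in either comparison with WT. XLOC_087737, its highest locus, had 17.0, 22.3 and 21.5 FPKM in the libraries labelled A4, 19.0, 15.3 and 17.8 in A9, and 16.0, 20.6 and 24.3 in WT, and the groups overlapped. The second highest locus, XLOC_018621, which lies outside the naming rule, lay between 8.26 and 14 FPKM over all 9 libraries. A locus under the filter, XLOC_041272 (75.18% identity), was singled out after its values were seen, with 0.546, 0.435 and 1.38 FPKM in the libraries labelled A4, next to 0.298, 0.37 and 1.91 in A9, while it was listed at 0 in each WT library. Its mean of about 32.5 fragments in the libraries labelled A4 and 30.6 in A9 makes it a low-level observation, for which no fold is given.

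Flavanone 3-hydroxylase is the step that leads to dihydroflavonols. Of the assembled genes sorted to it by description, the 2 best expressed moved in opposite directions. The higher one in WT, described only as flavanone 3-hydroxylase-like, was low in both lines, and whether it acts at this step was not tested. XLOC_010253 had 4.94, 2.39 and 1.72 FPKM in the libraries labelled A4, 4.27, 1.07 and 3.67 in A9, and 75.8, 37.2 and 57.1 in WT. The lowest WT library exceeded the highest library of either line several times over, and the lines overlapped each other. The mean FPKM was 18.8-fold lower in the libraries labelled A4 and 18.9-fold lower in A9, with log2(FPKM + 1) differences of -3.87 (SE 0.42, adjusted p = 2.16e-04) and -3.90 (SE 0.42, adjusted p = 0.000332). XLOC_010254, a longer locus of the same assembled gene, fell in both lines as well, by 2.43 (adjusted p = 1.81e-04) in the libraries labelled A4 and by 2.29 (adjusted p = 0.000419) in A9 on the same scale.

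Of the 2 assembled genes described as flavanone 3-hydroxylase without the suffix, the one with the higher identity to tomato had 4 measured loci, and all 4 rose in the libraries labelled A4. XLOC_074049, the highest (91.27% identity), had 25.9, 25.1 and 29.1 FPKM in the libraries labelled A4, 8.84, 6.61 and 10.8 in A9, and 5.73, 4.71 and 5.88 in WT. No libraries of the 3 groups overlapped. It rose 4.9-fold in the libraries labelled A4 (2.11 on the log2(FPKM + 1) scale, SE 0.16, adjusted p = 2.32e-05) and 1.61-fold in A9 (0.58, SE 0.16, adjusted p = 0.032). The A9 call was lost without any of A9 replicates 1 and 3 and WT replicates 1, 2 and 3, with adjusted p between 0.0621 and 0.0985, and in a fit of A9 and WT alone (0.0609). XLOC_074051, XLOC_074052 and XLOC_074050 rose by 2.12, 1.75 and 1.05 in the libraries labelled A4. In A9, XLOC_074051 rose by 0.71 (adjusted p = 0.00876), while XLOC_074052 (0.44, adjusted p = 0.0788) and XLOC_074050 (0.35, adjusted p = 0.124) did not pass the test. With the replicate block their adjusted p in A9 was 0.0249 and 0.0446. Without A9 replicate 2 the adjusted p of XLOC_074052 was 0.0118, and without A4 replicate 2 that of XLOC_074050 was 0.0495. The other one, with XLOC_002281 (75.75% identity) as its highest locus, had no called locus; its libraries ran between 4.15 and 6.1 FPKM at that locus.

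**Figure D3:**
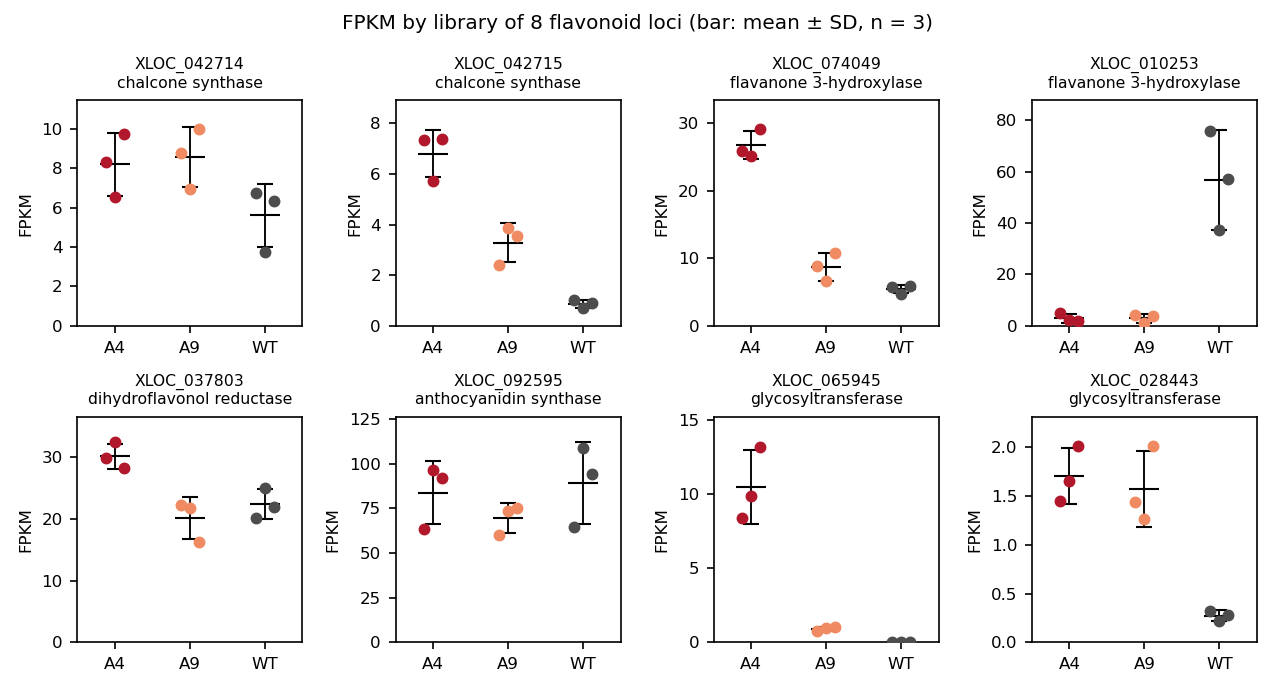
FPKM of 8 named flavonoid loci in each library, with groups in the order A4, A9, WT and bars for the mean ± SD of 3 libraries; each vertical axis starts at 0. XLOC_010253 lies between 37.2 and 75.8 in WT and under 5 in both lines, while XLOC_074049 lies between 25.1 and 29.1 in the libraries labelled A4 against 4.71 to 5.88 in WT.

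Dihydroflavonol reductase makes the leucoanthocyanidins. Of 8 measured loci described as this enzyme or as a member of its family, 5 rose in the libraries labelled A4 and 3 in A9, with none lower in either. The shares that rose were 62.5% and 37.5%, against 15.6% and 8.98% of all loci. These rises came from 3 assembled genes in the libraries labelled A4 and 1 in A9. Identities to tomato at this step were lower, at 53.1% to 79.38% for the measured loci, and whether these make leucoanthocyanidins was not tested. The locus with the closest match to a tomato dihydroflavonol reductase, XLOC_067922 (90.73% identity), was under the filter, with 0.199, 0.373 and 0.124 FPKM in the libraries labelled A4, 0.177, 0.19 and 0.256 in A9 and 0.0332, 0.0314 and 0.1 in WT. These amount to means of about 7.89, 7.25 and 1.65 fragments in the libraries labelled A4, in A9 and in WT, and this locus was singled out after its values were seen. Among the measured loci, XLOC_037803 was the highest, with 29.8, 32.4 and 28.2 FPKM in the libraries labelled A4, 22.3, 21.7 and 16.2 in A9 and 20.2, 25.0 and 21.9 in WT. The libraries labelled A4 lay above all others, and A9 and WT overlapped. It rose 1.35-fold in the libraries labelled A4 (0.42 on the log2(FPKM + 1) scale, SE 0.13, adjusted p = 0.0428), a call lost without any of A4 replicates 1, 2 and 3 and WT replicates 1 and 3 (adjusted p between 0.0682 and 0.13), and was not called in A9 (-0.16, adjusted p = 0.461). At 457 bases this locus is short and its FPKM rests on few possible fragment positions.

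One assembled gene had 5 measured reductase loci, of which 3 rose in both lines, XLOC_037806, XLOC_037805 and XLOC_037807. XLOC_037806 had 4.2, 4.0 and 4.05 FPKM in the libraries labelled A4, 4.95, 4.39 and 5.31 in A9 and 2.37, 3.02 and 3.33 in WT, with both lines above WT. The 3 loci rose by 0.39 (adjusted p = 0.021), 0.43 (adjusted p = 0.0118) and 0.36 (adjusted p = 0.0229) in the libraries labelled A4, and by 0.59 (adjusted p = 0.00497), 0.57 (adjusted p = 0.00556) and 0.51 (adjusted p = 0.00801) in A9. In the libraries labelled A4 the call of XLOC_037806 was lost without A4 replicate 1, A4 replicate 3 or WT replicate 1 (adjusted p between 0.0546 and 0.0598), and that of XLOC_037807 without A4 replicates 1 or 3 or WT replicates 1 or 3 (0.0603 to 0.0794). XLOC_037809, the highest locus of this gene, passed in neither line (0.36, adjusted p = 0.0724 in the libraries labelled A4 and 0.25, adjusted p = 0.235 in A9). Nor did XLOC_037808 of the same gene (0.28, adjusted p = 0.0933 and -0.11, adjusted p = 0.528). XLOC_037804, which matched tomato over 93 bases of the alignment only, had 1.85, 2.68 and 2.97 FPKM in the libraries labelled A4, 0.341, 0.722 and 0.609 in A9 and 0.316, 0.659 and 0.193 in WT. It was 6.42-fold higher in the libraries labelled A4 (1.33, SE 0.16, adjusted p = 4.51e-04), whereas A9 and WT overlapped (0.17, adjusted p = 0.515). The WT level amounts to about 6.43 fragments a library, the locus entered the test only through the libraries labelled A4, and it fell under the filter without A4 replicate 2 or 3.

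Anthocyanidin synthase makes the coloured anthocyanidins. The loci described by this name held the highest levels of the 98, and their main assembled gene was not called in either line. They match 5 different tomato proteins, and the main assembled gene matches one that no other gene of the step matches. Which of them act at this step was not tested, and this holds for the main gene too. XLOC_092595 (83.81% identity) had 63.5, 96.3 and 92.0 FPKM in the libraries labelled A4, 60.0, 73.6 and 75.4 in A9 and 64.4, 109.0 and 94.1 in WT. All groups overlapped, with log2(FPKM + 1) differences of -0.08 (adjusted p = 0.818) and -0.33 (adjusted p = 0.341). Of the 9 measured loci 1 fell in each line, which is 11.1%, against 16.6% of all loci in the libraries labelled A4 and 10.3% in A9. XLOC_060127 had 2.59, 2.73 and 3.54 FPKM in the libraries labelled A4, 4.96, 4.06 and 5.02 in A9 and 5.19, 4.26 and 5.08 in WT, and fell in the libraries labelled A4 by 0.57 (SE 0.12, adjusted p = 0.00691). XLOC_026946 had 2.06, 4.48 and 3.31 FPKM in the libraries labelled A4, 0.759, 0.935 and 1.62 in A9 and 2.22, 3.02 and 4.06 in WT. It fell in A9 by 0.96 (SE 0.25, adjusted p = 0.0269), a call lost without A9 replicates 1 or 2 or WT replicates 2 or 3 (adjusted p between 0.0674 and 0.0906).

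Anthocyanidin reductase, which opens the branch to condensed tannins, had a single measured locus. XLOC_048098 had 3.32, 1.79 and 2.44 FPKM in the libraries labelled A4, 3.82, 1.75 and 2.37 in A9 and 3.29, 1.54 and 1.9 in WT. The groups overlapped and neither comparison passed (adjusted p = 0.731 and 0.701). Its name is uncertain, since another locus of the same assembled gene is described as a dihydroflavonol reductase and its identity is 55.78%. The second locus, XLOC_055961, was under the filter and was singled out after its values were seen: it was listed at 0, 0 and 0.0204 FPKM in the libraries labelled A4 and at 0 in all 3 A9 libraries, against 0.467, 0.544 and 0.44 FPKM in WT, about 17.7 fragments a library.

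Glycosyltransferases attach sugars to the anthocyanidin or flavonol and are the step with the most loci. Of 15 measured, 5 changed in the libraries labelled A4 (3 higher, 2 lower), and 2 rose in A9. The shares called, 33.3% and 13.3%, were near or below the 32.1% and 19.2% of all loci. XLOC_065945 (82.11% identity, described as an anthocyanidin glucosyltransferase) had 8.41, 9.89 and 13.2 FPKM in the libraries labelled A4, 0.738, 0.964 and 1.01 in A9 and 0.0199, 0.0187 and 0.0198 in WT. The groups were separate by far, and the WT values amount to about 0.977 fragments per library, so no fold against WT is given. The log2(FPKM + 1) difference was 3.48 (SE 0.14, adjusted p = 5.14e-07) in the libraries labelled A4 and 0.90 (SE 0.14, adjusted p = 0.00263) in A9, for a locus that entered the test only through the libraries labelled A4. XLOC_028443, described as a flavonoid glucosyltransferase fragment (78% identity), had 1.45, 1.65 and 2.01 FPKM in the libraries labelled A4, 1.44, 1.26 and 2.01 in A9 and 0.324, 0.218 and 0.278 in WT. The lines overlapped each other and both lay above WT, with differences of 1.08 (SE 0.12, adjusted p = 2.44e-04) and 1.00 (SE 0.12, adjusted p = 0.000631).

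XLOC_030968 shares its tomato match with XLOC_065945 but is only 302 bases long, close to the fragment length, so its FPKM are imprecise. It had 9.23, 8.42 and 8.63 FPKM in the libraries labelled A4, 0, 2.49 and 1.37 in A9, and was listed at 0 in each WT library. It rose in the libraries labelled A4 (3.29, SE 0.36, adjusted p = 2.5e-04) on about 14 fragments a library, and it too entered the test only through these libraries. In A9 it did not pass (1.01, SE 0.36, adjusted p = 0.0863), and without A9 replicate 1, the library at 0, the adjusted p was 0.000499. The 2 falls in the libraries labelled A4 were small: XLOC_006510 by 0.34 (adjusted p = 0.0288) and XLOC_017033 by 0.32 (adjusted p = 0.0106). The first call was lost without A4 replicates 2 or 3 or any WT replicate (adjusted p between 0.0629 and 0.096) and in a fit of the 2 groups alone (0.0534). XLOC_017033 belongs to an assembled gene with 10 measured loci, at 48.19% to 52.82% identity, of which it was the only one called against WT. All 10 were lower in the libraries labelled A4, by 0.07 to 0.32. Summed over the 33 loci that share its tomato match, the level fell by 0.29 in the libraries labelled A4 (adjusted p = 0.0049). In A9 it was not called (-0.09, adjusted p = 0.279).

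Summed over the loci sorted to it by name, each step gave a level per library. These sums count a transcript once per locus and are given as a description, with no test. A locus sorted to a step by name need not act at it. Chalcone synthase summed to 19.7 ± 3.31 FPKM in the libraries labelled A4, 15.9 ± 2.15 in A9 and 8.84 ± 2.43 in WT (SD, n = 3 each), with both lines above WT in every library. Dihydroflavonol reductase summed to 59.4 ± 1.97, 44.5 ± 3.97 and 40.6 ± 4.65 FPKM in the same order, and the glycosyltransferases to 50.5 ± 3.91, 36.7 ± 1.56 and 35 ± 0.518. In both of these the libraries labelled A4 lay above all others. The glycosyltransferase sum holds XLOC_065945 and XLOC_030968, with means of 10.5 and 8.76 FPKM in the libraries labelled A4 against 0.0195 and 0 in WT. Flavanone 3-hydroxylase summed to 65 ± 5.31 FPKM in the libraries labelled A4, 29.6 ± 7.48 in A9 and 84.5 ± 23 in WT, where the fall of the like-protein locus and the higher levels of XLOC_074049 and its neighbours in the libraries labelled A4 enter the same sum. Chalcone isomerase (42.3 ± 2.71, 37.2 ± 3.74 and 39.2 ± 6.2 FPKM) and anthocyanidin synthase (159 ± 31.9, 134 ± 13.9 and 170 ± 36.5) overlapped between WT and both lines, as did anthocyanidin reductase (2.53 ± 0.767, 2.65 ± 1.06 and 2.72 ± 0.9). With the glycosyltransferase sum limited to loci of at least 500 bases, which leaves out XLOC_030968, the means were 41.8 ± 4.04, 35.4 ± 0.367 and 35 ± 0.518 FPKM. The same limit on dihydroflavonol reductase leaves out XLOC_037803 and gave 29.3 ± 0.937, 24.4 ± 0.608 and 18.2 ± 2.23 FPKM, with every A9 library above WT.

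**Figure D4:**
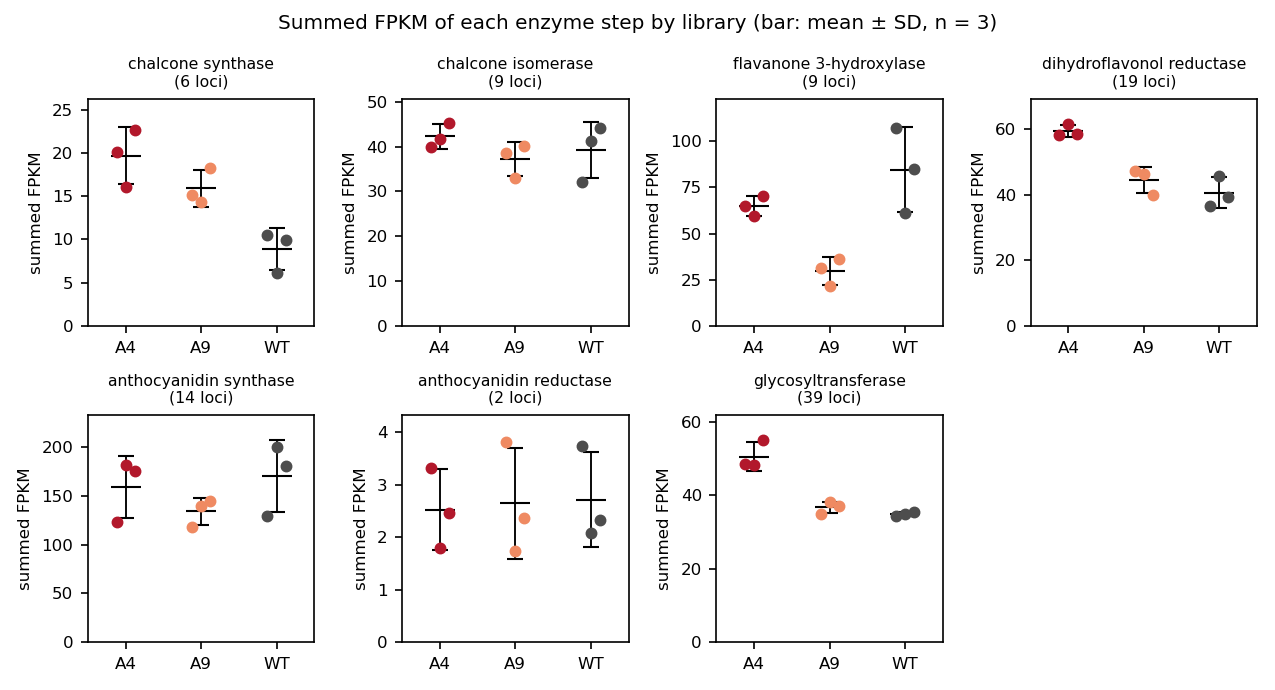
Summed FPKM of the loci of each enzyme step in each library, with groups in the order A4, A9, WT and bars for the mean ± SD of 3 libraries; each vertical axis starts at 0. Chalcone synthase is higher in both lines than in WT, and dihydroflavonol reductase and the glycosyltransferases are highest in the libraries labelled A4.

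The lines were then compared with each other. Between the libraries labelled A4 and A9, 12 of 50 measured loci were called, 24% against 18.0% of all loci, with 11 higher in the libraries labelled A4 (9.91% of all loci were) and 1 lower (8.13% of all loci were). Of 24 assembled genes 8 held a higher locus and 1 a lower one, and the same count over all assembled genes was not made. The calls include 3 loci (XLOC_030968, XLOC_037804 and XLOC_065945) that reached 1 FPKM only through the libraries labelled A4, which had to favour a difference. The glycosyltransferase XLOC_065945 differed by 2.58 (SE 0.14, adjusted p = 6.86e-06) on the log2(FPKM + 1) scale, the 4 loci of the flavanone 3-hydroxylase gene by 0.71 to 1.53, and the chalcone synthase XLOC_042715 by 0.87 (SE 0.15, adjusted p = 0.0057). The flavanone 3-hydroxylase-like locus XLOC_010253 did not differ between the lines beyond its error (0.04, SE 0.42, adjusted p = 0.965). The reductase locus XLOC_037808, one of the 50 but called in neither line against WT, was also among the calls (0.39, adjusted p = 0.0442). The count of called loci fell to 7 without A4 replicate 2, all 7 higher in the libraries labelled A4. The lower call, XLOC_060127 at -0.53 (adjusted p = 0.0183), was lost without that library, A9 replicate 1 or A9 replicate 3, and the higher calls of XLOC_037803 (0.57, adjusted p = 0.021) and XLOC_026946 (1.01, adjusted p = 0.0245) were also lost without A4 replicate 2. XLOC_026946 was further lost without A4 replicate 3, A9 replicate 1 or A9 replicate 2.

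Of the enzymes that feed the pathway, 51 loci were measured, of which the libraries labelled A4 had 5 higher and 20 lower, and A9 had 1 higher and 3 lower. The share called was 49% in the libraries labelled A4 against 32.1% of all loci, and 7.84% in A9 against 19.2%. All 11 called loci among 17 described as phenylalanine ammonia-lyase, which removes ammonia from phenylalanine, were lower in the libraries labelled A4, and none of the 17 was called in A9. The 11 came from only 2 of the 8 assembled genes measured. The highest of them, XLOC_082237, averaged 2518 ± 297 FPKM in the libraries labelled A4, 3839 ± 720 in A9 and 3470 ± 674 in WT, and was not called (adjusted p = 0.0926 and 0.623). The highest 4-coumarate CoA ligase locus, XLOC_077283, averaged 2401 ± 246, 2582 ± 548 and 2698 ± 91 FPKM in the same order and was not called (adjusted p = 0.435 and 0.744). The 25 calls in the libraries labelled A4 fell to 12 without A4 replicate 1, 15 without A4 replicate 3 and 9 without WT replicate 2, and the 4 in A9 to 1 without A9 replicate 1, WT replicate 2 or WT replicate 3 and to 2 without A9 replicate 3.

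A list of decoration and transport loci held 28 measured loci, all described as cytochrome b5 proteins, which carry electrons, or their reductases. Of these, 4 were higher and 3 lower in the libraries labelled A4, and 1 was higher and 3 lower in A9. The shares called, 25% and 14.3%, were below the 32.1% and 19.2% of all loci. The 7 calls in the libraries labelled A4 fell to 1 without A4 replicate 3, 3 without A4 replicate 2 and 4 without A4 replicate 1 or WT replicate 3. The 4 in A9 fell to 0 without A9 replicate 3 or WT replicate 3, 1 without A9 replicate 2, and 2 without A4 replicate 2, A9 replicate 1, WT replicate 1 or WT replicate 2. The list of regulators had 1 of 32 measured loci higher and 7 lower in the libraries labelled A4, and 5 lower in A9, and the 8 calls of the first fell to 5 without A4 replicate 2, WT replicate 1 or WT replicate 3. The shares called were 25% and 15.6%, against 32.1% and 19.2% of all loci. It held mostly zinc finger proteins that share the letters AN1 with a petunia regulator, and only 3 measured loci, from 2 assembled genes, described as a Myc-like anthocyanin regulatory protein, the helix-loop-helix member of the complex above. XLOC_012820 had 9.6, 11.4 and 10.8 FPKM in the libraries labelled A4, 8.51, 9.59 and 6.64 in A9 and 13.3, 13.2 and 11.9 in WT. Both lines lay below WT in every library, and the locus fell in A9 (-0.59, SE 0.13, adjusted p = 0.0123) while the libraries labelled A4 did not pass (-0.25, adjusted p = 0.156). XLOC_012821 fell in A9 as well (-0.54, adjusted p = 0.0303), and XLOC_012822 was not called in either line. A list for the isoflavonoid branch matched 0 loci.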

How the data were processed

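The values are FPKM, deposited by the authors with a column per library for 94534 loci on assembled contigs. The tomato protein matched to a locus, its identity in percent, bit score and e-value come from a second table, per the file headers; 79813 loci had a match. FastQC 0.11.2 and Bowtie2 2.2.6 are named per the submitters' processing notes, while for the assembler and the counting program the entry is: not given in the sources used here. No genome or sequence was used here.

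The test used limma 3.58.1 (R 4.3.3) for the 53284 loci whose mean reached 1 FPKM. Values entered as log2(FPKM + 1), a single fit held 3 group means and a trended prior, and p-values were Benjamini-Hochberg adjusted over all loci. Folds are ratios of mean FPKM. Depth was recovered from steps between low values, with 100% of those used within 0.1 of a whole fragment. The fit was tested on simulated data.

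The locus list, the marker and pathway lists and the tests were chosen with earlier results of these data known; the MADS-box markers were added after seeing the data. Named loci were the highest of each step, every measured locus called in either line against WT, and the 2 highest of each pathway list. Of the decoration list only counts are given, and of the regulators counts and the 3 loci described as anthocyanin regulators, chosen outside this rule after the descriptions were seen.

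Same-numbered libraries deviated together by correlations of 0.248, 0.344 and 0.104 for A9 with WT and 0.24, 0.261 and 0.249 for A4 with A9. For A4 with WT the correlations were 0.229, 0.192 and -0.125. These values do not settle whether same-numbered libraries were paired, and the main fit took none as paired. The main calls of all comparisons come from the fit without a block. Alternatives were another pseudocount, other filters, median-ratio scaling, the replicate block, fits of 2 groups, sums per tomato protein and leaving out each library.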

Additional observations from a re-analysis of the deposited data

Results flagged for a closer look

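For 11 named loci the lines differed from each other in the direct test of the libraries labelled A4 against A9, so that the change from WT was not of the same size in both. The differences on the log2(FPKM + 1) scale were 0.87 for the chalcone synthase XLOC_042715, and 1.53, 1.41, 1.31 and 0.71 for the flavanone 3-hydroxylase loci XLOC_074049, XLOC_074051, XLOC_074052 and XLOC_074050. Among the dihydroflavonol reductases they were 0.57 for XLOC_037803 and 1.16 for XLOC_037804. The anthocyanidin synthases XLOC_060127 and XLOC_026946 differed by -0.53 and 1.01, in opposite directions, and the glycosyltransferases XLOC_065945 and XLOC_030968 by 2.58 and 2.27. Only XLOC_060127 was lower in the libraries labelled A4 than in A9. XLOC_037804, XLOC_065945 and XLOC_030968 had entered the test only through the libraries labelled A4, which had to favour a difference.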

How the results depend on the processing

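No named call changed direction under any alternative run; of the named calls, 15 of 19 in A4 against WT, 9 of 12 in A9 against WT and 8 of 11 in A4 against A9 held under each alternative that gave a value for the locus (12 to 15 of them). Of these calls 14, 9 and 7 had no value at a mean of at least 5 FPKM, and XLOC_037804 had none without A4 replicate 2 or 3. The counts called moved with the filter, which changes how many of the 98 loci enter. In A4 against WT, with 19 called (14 higher, 5 lower), no filter gave 31 called and 24 higher, a mean of at least 5 FPKM gave 5, 4 and 1, and sums per tomato protein gave 11, 9 and 2. In A9 against WT, with 12 called (9 higher, 3 lower), no filter gave 5 lower, at least 5 FPKM gave 3, 2 and 1, and sums per protein gave 7 called and 5 higher. In A4 against A9, with 12 called (11 higher, 1 lower), no filter gave 19 called and 18 higher, at least 5 FPKM gave 4, 4 and 0, and sums per protein gave 7 higher. The sums covered 21 measured proteins of these loci. Over the whole table in A4 against WT, 27.1% of loci were called without a filter, 7791 of 20297 at 5 FPKM, and 5799 of 14288 proteins. On the same totals these were 15.5%, 4833 and 3810 in A9 against WT, and 14.5%, 4399 and 3643 in A4 against A9.

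Leaving out each library in turn, the called, higher and lower counts ran from 14 to 21, 10 to 16 and 4 to 7 in A4 against WT, from 9 to 13, 7 to 10 and 2 to 4 in A9 against WT, and from 7 to 13, 7 to 12 and 0 to 1 in A4 against A9. With the replicate block, 20, 18 and 13 loci were called (40%, 36% and 26%, against 34.7%, 22.1% and 20.9% of all loci). In A9 against WT 6 were lower in place of 3. The block was a single fit of all 9 libraries, so it pairs all 3 groups by replicate number, which the check above did not settle.

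The summed glycosyltransferase level, 0.53 higher (log2) in A4 than in WT, was -0.42 for its highest locus alone. The same limit moved chalcone synthase from 1.15 to 0.54 and anthocyanidin reductase from -0.11 to 0.17 in A4, flavanone 3-hydroxylase from -0.38 to -4.23 in A4 and from -1.51 to -4.24 in A9, and dihydroflavonol reductase from 0.13 to -0.16 in A9. For flavanone 3-hydroxylase this highest locus is XLOC_010253, described only as a like-protein. At 1 FPKM a locus of 1500 bases rested on at least 36.3 fragments, so loci far under the filter are limited by counting error.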

Other observations

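The 48 loci under the filter were also examined. When all 98 were tested without a filter, 12 of these 48 were called in the libraries labelled A4 against WT (10 higher, 2 lower), 4 in A9 against WT (2 higher, 2 lower) and 7 in the libraries labelled A4 against A9, all 7 higher; over all 94534 loci the shares called were 27.1%, 15.5% and 14.5%.

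In 12 of the 50 measured loci (24%) the library with the lowest FPKM carried the same replicate number in the libraries labelled A4, in A9 and in WT, against 19.2% of all tested loci. It was replicate 2 at the chalcone synthase loci XLOC_042713 and XLOC_042714 and the flavanone 3-hydroxylase loci XLOC_074049, XLOC_074050 and XLOC_074052. It was replicate 1 at XLOC_092595, the highest locus described as anthocyanidin synthase.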
